A study of Mus musculus with 8 samples.

Results

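The FOXA genes Foxa1, Foxa2 and Foxa3 were followed through chromatin loops captured with tagged REV-ERBα in mouse liver. They are 3 of 21887 protein-coding genes of the mouse annotation, and they were taken as a gene family, with earlier results of these data known. A loop was assigned to a gene when either of its anchors touched the gene body or the 25 kb on either side of it, and 102 of 277517 loops in 6 libraries met this rule. A loop is a pair of anchor intervals on 1 chromosome, and its strength is the number of paired-end tags (PETs), sequenced read pairs that join both anchors.

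The assay was in-situ ChIA-PET, in which crosslinked chromatin is cut and religated inside nuclei and the fragments bound by a chosen protein are then pulled down. Here liver nuclei were crosslinked with formaldehyde and EGS, cut with AluI, religated and pulled down with anti-HA beads, so that the loops recorded are those held by chromatin bearing 3HA-tagged REV-ERBα. The knock-in mice had the genotype REV-ERBa3HA/3HA and no virus, with 1 library at zeitgeber time (ZT) 10 and 1 at ZT22. The other 4 libraries came from REV-ERBaf/fREV-ERBbf/f mice at ZT10, all injected with AAV8-TBG-Cre, a virus whose TBG promoter is active in hepatocytes, so other liver cells keep their own genes. With it they received a second virus, 2 libraries with AAV8-TBG-3HA-REV-ERBa-delhIDR (written dhIDR below, a form that by its label lacks the hIDR) and 2 with AAV8-TBG-3HA-REV-ERBa-WT (written WT). The tagged protein in these 4 came from a transgene and not from its own gene. Ages, the number of animals behind a library and whether livers were pooled are not given in the sources used here, so p-values measure the spread between libraries, which may be technical. The series also holds 2 anti-CTCF samples, which were not analysed here.

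FOXA proteins are winged-helix transcription factors called pioneer factors, because they can bind their motif on nucleosomes and open closed chromatin. Foxa1 and Foxa2 together are needed for the liver to form in the embryo, and Foxa3 joins them in the mature hepatocyte, where the family helps to keep genes of glucose, bile acid and lipid metabolism accessible to nuclear receptors. REV-ERBα, the product of Nr1d1, is a nuclear receptor of the circadian clock that recruits corepressors and is abundant in mouse liver late in the light phase and scarce late in the night.

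The promoters of the members are shown because the strongest loop at each of Foxa2 and Foxa3, and 1 loop at Foxa1, ended on them, and the 5′ end of the long noncoding RNA gene 9030622O22Rik is shown because the third strongest loop at Foxa2 covered it. Sequences are those of RefSeq on GRCm38.p6, 300 bases from 250 before to 50 after the annotated start, written 5′ to 3′ on the gene's strand, which is the minus strand for all 4. Capitals mark matches, on either strand, to GGGTCA (the core of a nuclear receptor element) or to TGTTTAC (the core of a forkhead element).
Foxa1 promoter, chr12:57546062-57546361: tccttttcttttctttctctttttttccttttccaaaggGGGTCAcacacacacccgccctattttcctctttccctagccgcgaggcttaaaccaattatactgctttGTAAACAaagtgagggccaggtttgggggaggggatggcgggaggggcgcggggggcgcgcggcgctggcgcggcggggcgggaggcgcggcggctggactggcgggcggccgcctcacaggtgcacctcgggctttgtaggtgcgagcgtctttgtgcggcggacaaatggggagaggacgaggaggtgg
Foxa2 promoter, chr2:148046920-148047219: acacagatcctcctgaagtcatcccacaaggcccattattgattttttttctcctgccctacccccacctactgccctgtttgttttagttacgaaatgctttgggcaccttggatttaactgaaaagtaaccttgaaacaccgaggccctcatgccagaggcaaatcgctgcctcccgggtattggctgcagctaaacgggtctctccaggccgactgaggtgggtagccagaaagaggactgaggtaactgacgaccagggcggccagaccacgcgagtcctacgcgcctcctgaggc
Foxa3 promoter, chr7:19023490-19023789: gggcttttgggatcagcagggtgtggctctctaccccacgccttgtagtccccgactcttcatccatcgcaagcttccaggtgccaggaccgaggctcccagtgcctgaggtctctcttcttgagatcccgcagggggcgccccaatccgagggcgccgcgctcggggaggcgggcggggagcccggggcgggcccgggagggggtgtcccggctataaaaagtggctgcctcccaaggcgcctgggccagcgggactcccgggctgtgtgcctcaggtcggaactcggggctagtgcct
9030622O22Rik 5′ end, chr2:148040464-148040763: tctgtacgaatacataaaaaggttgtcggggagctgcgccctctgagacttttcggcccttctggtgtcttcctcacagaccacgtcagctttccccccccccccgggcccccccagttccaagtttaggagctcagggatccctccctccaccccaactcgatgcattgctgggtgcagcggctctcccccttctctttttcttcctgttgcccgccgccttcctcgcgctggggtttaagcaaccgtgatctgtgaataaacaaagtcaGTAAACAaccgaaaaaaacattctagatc
The search covered the nuclear receptor core AGGTCA with its variant GGGTCA, the forkhead core TGTTTAC, the E-box CACGTG, the direct repeat AGGTCANNAGGTCA, to which REV-ERB dimers bind, and the longer RORE, on both strands. The Foxa1 window held GGGTCA from base 40 and TGTTTAC, on the opposite strand, from base 110. The window at the 5′ end of 9030622O22Rik held TGTTTAC on the opposite strand from base 272. None of the letters searched occurred in the Foxa2 or the Foxa3 window, nor in the windows of the other annotated Foxa2 starts (chr2:148045415-148045714 and chr2:148045899-148046198). Of 32851 promoter windows, 16.3% held AGGTCA, 13.7% GGGTCA, 3.65% TGTTTAC, 7.15% CACGTG, 0.384% RORE and 0.00913% the direct repeat, which itself contains AGGTCA. A match or its absence says only which letters lie in these windows.

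The ZT10 knock-in library stood apart from the other 5 as a whole. It listed 57865 loops with 320427 PETs, against 31033 to 58102 loops with 104161 to 204018 PETs in the others. Its median loop spanned 40.1 kb and its median anchor was 1067 bp wide, whereas the medians of the others lay at 524 to 1071 kb and 601 to 626 bp. It had 5648 merged anchors (overlapping anchors of 1 library joined into 1 interval) with at least 5 loops, and the others had 2 to 9. There is 1 library for that group, so no result on it can be given without this library. The lowest listed count was 3 PETs in each library, so an unlisted loop had 0 to 2 PETs. Intervals below are at 95% and cover counting error only, not the spread between libraries. They may be too narrow even for counting error, since PETs made by PCR are not independent molecules. The loops do not show whether the floxed genes were deleted.

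Foxa2 carried most of the family's loops. This compact gene on chromosome 2 (148042877 to 148046969, gene ID 15376) encodes the family member needed for endoderm and for the liver's response to fasting. It had 337 PETs (302 to 375) over 52 loops in the ZT10 knock-in library, against 8 PETs over 2 loops at ZT22. The dhIDR replicates each had 6 PETs over 2 loops, and the WT replicates had 0 and 6 PETs over 0 and 2 loops. Per 100,000 listed PETs of the library, these counts came to 105 at ZT10 and 6.03 at ZT22, to 3.36 and 3.74 in dhIDR and to 0 and 2.94 in WT. Of all genes with at least 30 PETs over both knock-in libraries, 30.7% had a share at least 4-fold higher at ZT10.

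The Foxa2 loops at ZT10 ran almost all to the downstream side, away from the start and past the end of the gene. The anchor farther from the start lay downstream for 51 of 52 loops and 334 of 337 PETs. The exception was a loop of 3 PETs to a place upstream near Gzf1 and Napb, 650 kb away. No loop spanned over 2 Mb, and 15 loops had both anchors within the window of gene and flanks. A promoter of Foxa2 lay in an anchor of 19 loops with 181 PETs, 53.7% of its PETs.

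The strongest loop joined chr2:147941773-147945679 to chr2:148044667-148050156, which covers the Foxa2 promoter, with 60 PETs (45.8 to 77.2) over a span of 104 kb. Only 221 of the loops in that library had more PETs. The next joined chr2:148023144-148027552 to chr2:148044371-148049595 with 49 PETs over 21.6 kb. The third, with 20 PETs, joined chr2:148029512-148032955 to chr2:148039170-148040834, where 9030622O22Rik begins. That gene (147944459 to 148040513) is a long noncoding RNA gene on the same strand as Foxa2, which starts 2364 bp beyond the end of Foxa2, and its whole length lay under the loops. A loop of 11 PETs joined chr2:147942285-147943518 to chr2:148024297-148026293 without touching Foxa2, and the fifth, with 7 PETs like 5 further loops, joined a point just upstream of the gene to a place 240 kb away. No protein-coding gene other than Foxa2 lay within 5 kb of the far anchor of these 5 loops.

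When overlapping anchors of all loops of the ZT10 library were merged, the 3 places near Foxa2 with most PETs were joined to each other. The loops and PETs of a place include loops that do not reach Foxa2 or its flanks. The first, chr2:147941576-147945919, lay 101 to 105 kb downstream of the Foxa2 start at the 3′ end of 9030622O22Rik. It took part in 34 loops with 264 PETs, and 37 of the 51940 merged anchors of that library had more loops. The second, chr2:148043345-148050156, covered Foxa2 and had 27 loops with 212 PETs. The third, chr2:148021944-148032955, lay between them, inside 9030622O22Rik, and also had 27 loops, with 177 PETs. Each pair of the 3 places was joined. The far place and Foxa2 shared 1 loop of 60 PETs, the near place and Foxa2 shared 5 loops with 64 PETs, and the far and near places shared 5 loops with 32 PETs. The other 5 libraries listed 0 loops for each of these 3 pairs. Further merged anchors with 9 to 15 loops lay at chr2:147927550-147933232, which had 94 PETs, and at chr2:147903475-147906796, chr2:147967697-147970292 and chr2:148039006-148042525.

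A stretch of 280 kb around these places (chr2:147780001-148060000, chosen after its values were seen) held 92 loops with 561 PETs at ZT10. It held 3 loops with 10 PETs at ZT22. The dhIDR replicates listed 1 loop with 3 PETs and 5 loops with 21 PETs, and the WT replicates listed 0 loops and 4 loops with 13 PETs. Of the 13 loops listed there by the other 5 libraries, 1 matched a ZT10 loop at both anchors. It was in dhIDR replicate 2 and joined chr2:147813734-147814316 to chr2:147942542-147943193 with 3 PETs, where ZT10 had 11, and it ended in the far place and not at Foxa2.

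**Figure D1:**
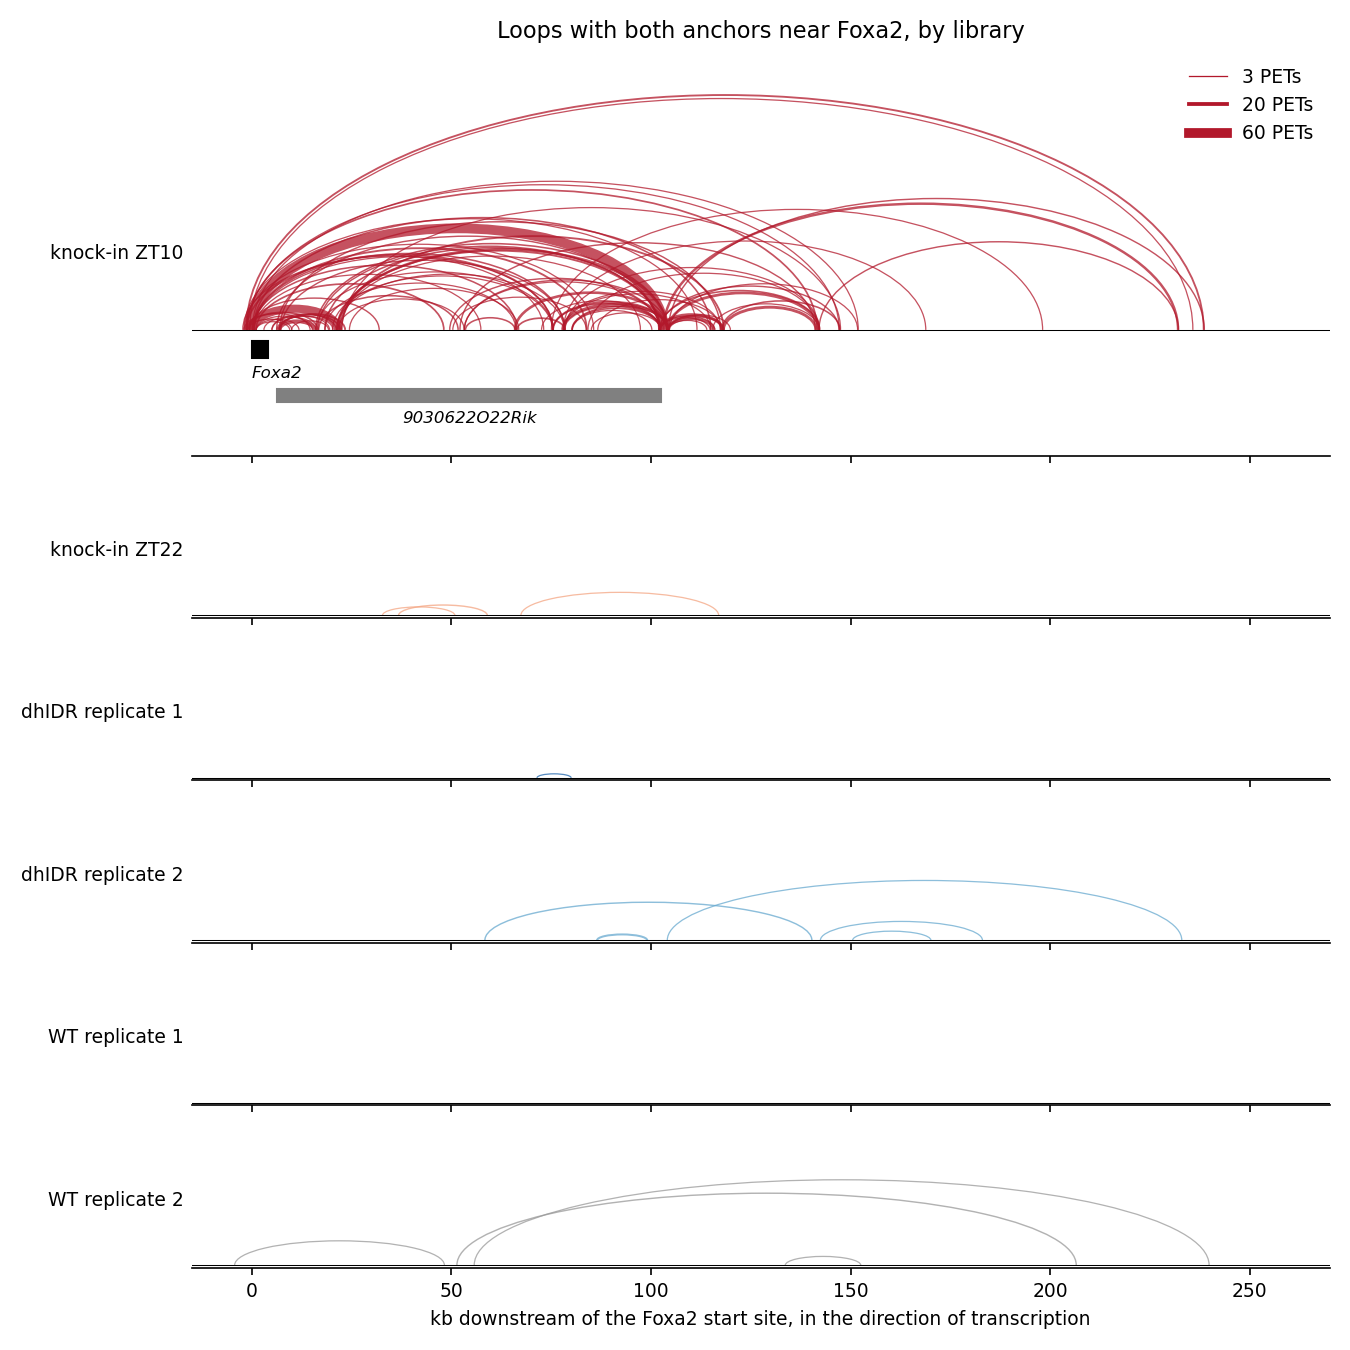
Loops with both anchors in the 280-kb stretch around Foxa2, 1 panel per library, with distance downstream of the Foxa2 start in kb on the horizontal axis. Each arc is a loop whose line width grows with its PETs and whose height grows with its span; the black bar is Foxa2 and the grey bar 9030622O22Rik. The ZT10 panel holds 92 arcs, the thickest of 60 PETs, and the other panels hold 0 to 5.

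Outside ZT10 the few loops at Foxa2 went mostly elsewhere. At ZT22, 5 PETs joined a point 13.7 kb upstream of the start to a place 14619 kb away, and 3 PETs joined the near place to a place by Traf6 that lay 46349 kb away. The 4 loops of the dhIDR replicates had 3 PETs each and spanned 24204 to 122537 kb, with Ube2e3, Golga1, C8g and Lcn12 among the genes at their far ends. WT replicate 2 had the only short ones. It listed 3 PETs over 52.5 kb, from chr2:147998399-147998972 inside 9030622O22Rik to chr2:148050925-148051514 upstream of Foxa2, and 3 PETs over 535 kb. None of these loops ended on a Foxa2 promoter.

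Foxa1 had fewer PETs than Foxa2 at ZT10 and a different layout. The gene lies on chromosome 12 (57540628 to 57548029, gene ID 15375), its printed promoter starts a transcript within that interval, and Ttc6 overlaps its 5′ end. It encodes the factor that shares many liver binding sites with FOXA2. It had 49 PETs (36.3 to 64.8) over 11 loops at ZT10 and 5 PETs (1.62 to 11.7) in 1 loop at ZT22. The dhIDR replicates had 7 and 18 PETs over 2 and 4 loops, and the WT replicates had 15 and 9 PETs over 4 and 3 loops. As shares of 100,000 listed PETs, ZT10 had 15.3 and ZT22 had 3.77, the dhIDR replicates had 3.92 and 11.2, and the WT replicates had 14.4 and 4.41. On this scale WT replicate 1 was close to the ZT10 library, and the dhIDR and WT replicates overlapped. The closeness holds for the window as a whole. Loops with an anchor in the Foxa1 body held 0 of the 15 PETs of WT replicate 1 and 24 of the 49 at ZT10.

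At ZT10 the Foxa1 loops converged on 1 distant place. The merged anchor chr12:57441843-57449627 lay 96.5 to 104 kb downstream of the start, over the noncoding gene Gm16246 and inside the body of Mipol1, the neighbouring gene. It had 14 loops with 72 PETs, and 8 of the 11 Foxa1 loops ended there. The strongest joined chr12:57446203-57449627 to chr12:57542973-57545134 in the Foxa1 body with 9 PETs over 96.1 kb. The next 3 had 5 PETs each and ended in or just past the Foxa1 body. The fifth, from chr12:57442366-57444546 to chr12:57537733-57539133, had 4 PETs, as had the only loop on the promoter, which gave 8.16% of the gene's PETs. As at Foxa2, the far anchor lay downstream for nearly all loops, 10 of 11, with 46 of 49 PETs. The exception had 3 PETs and spanned 20734 kb.

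The other libraries listed no loop between the place at Gm16246 and Foxa1. In dhIDR replicate 2 a loop of 4 PETs joined chr12:57406133-57406757, also in Mipol1, to chr12:57544295-57544886 in the Foxa1 body, over 138 kb. In WT replicate 2 a loop of 3 PETs joined chr12:57327828-57328400 in Mipol1 to chr12:57544062-57544701, over 216 kb. Each shared the anchor in the Foxa1 body with the strongest ZT10 loop and ended at another part of Mipol1. The strongest loop of dhIDR replicate 2 lay upstream, with 6 PETs over 29.5 kb within Ttc6. The remaining loops had 3 to 5 PETs, among them the ZT22 loop of 5 PETs to Lrfn5 over 4055 kb.

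Foxa3 was the member with least signal at ZT10 and had its highest level in another library. It lies on chromosome 7 (19013283 to 19023539, gene ID 15377) among close neighbours, with Sympk, Irf2bp1, Mypop and Nanos2 inside the same window. It encodes the family member most expressed in adult liver. It had 15 PETs (8.40 to 24.7) over 3 loops at ZT10 and 7 PETs over 2 loops at ZT22. The dhIDR replicates had 6 and 28 PETs over 2 and 5 loops, and the WT replicates had 6 and 10 PETs over 2 and 3 loops. Per 100,000 listed PETs, dhIDR replicate 2 stood out with 17.4, and dhIDR replicate 1 had 3.36. Both knock-in libraries and both WT replicates lay between 4.68 and 5.76. These shares cover the window with its flanks. Loops with an anchor in the Foxa3 body held 8 of the 28 PETs of dhIDR replicate 2, and all 15 PETs at ZT10.

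The 3 ZT10 loops at Foxa3 were short and stayed at the gene. The strongest joined chr7:19011611-19013695 at the 3′ end to chr7:19021458-19024084 over the promoter, with 9 PETs over 10.1 kb, so that its anchors covered both ends of Foxa3. The others had 3 PETs each, joined points 14.8 and 16.1 kb downstream, near Irf2bp1, to the 5′ part of the gene, and spanned at most 16.3 kb. The promoter took part in 2 of the 3 loops, with 12 PETs or 80.0% of the total. No other library listed a loop with both anchors in the 60 kb around the gene (chr7:18990001-19050000). In dhIDR replicate 2 the loops spanned 188 to 32868 kb, and the strongest, of 10 PETs, joined chr7:19002547-19003156 on the Irf2bp1 and Mypop side to chr7:19487024-19487595 at Exoc3l2. Another 3 of its loops had 5 PETs each, with Gas2 and Kmt2b at the far end of 2 of them.

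**Figure D2:**
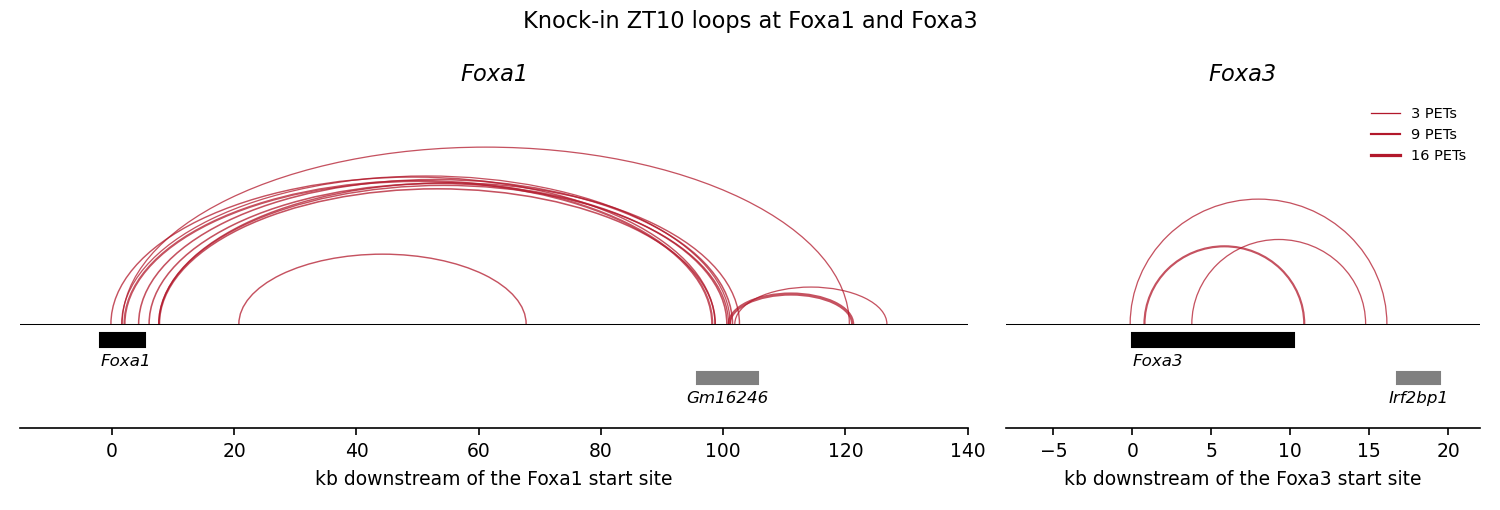
Loops of the ZT10 knock-in library in the 170-kb stretch at Foxa1 (left, 12 loops) and the 60-kb stretch at Foxa3 (right, 3 loops), with distance downstream of each start in kb on the horizontal axis. Line width grows with PETs and arc height with span; black bars are the members and grey bars neighbouring genes. Most Foxa1 arcs end near Gm16246, and the Foxa3 arcs stay within 16.3 kb of span.

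Loops of the 3 genes differed in kind between the ZT10 library and the others. At ZT10, 64 of 66 loops spanned at most 500 kb and their median was 75.3 kb, above the library's own median of 40.1 kb. Over the other 5 libraries 13 of 36 loops spanned at most 500 kb, and the median was 3149 kb. Both anchors were at least 700 bp wide in 56 of 66 loops at ZT10 and in 0 of 36 elsewhere, where the widest anchor had 654 bp. Over all loops, counted in PETs, such wide loops held 268106 of 320427 at ZT10 and 16350 of 132709 at ZT22. A member's promoter lay in an anchor of 22 loops at ZT10 and of 0 in the others, a count not made over all genes. The differences in span and anchor width run along with those of the whole libraries given above, and their part in the members' values was not tested.

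**Figure D3:**
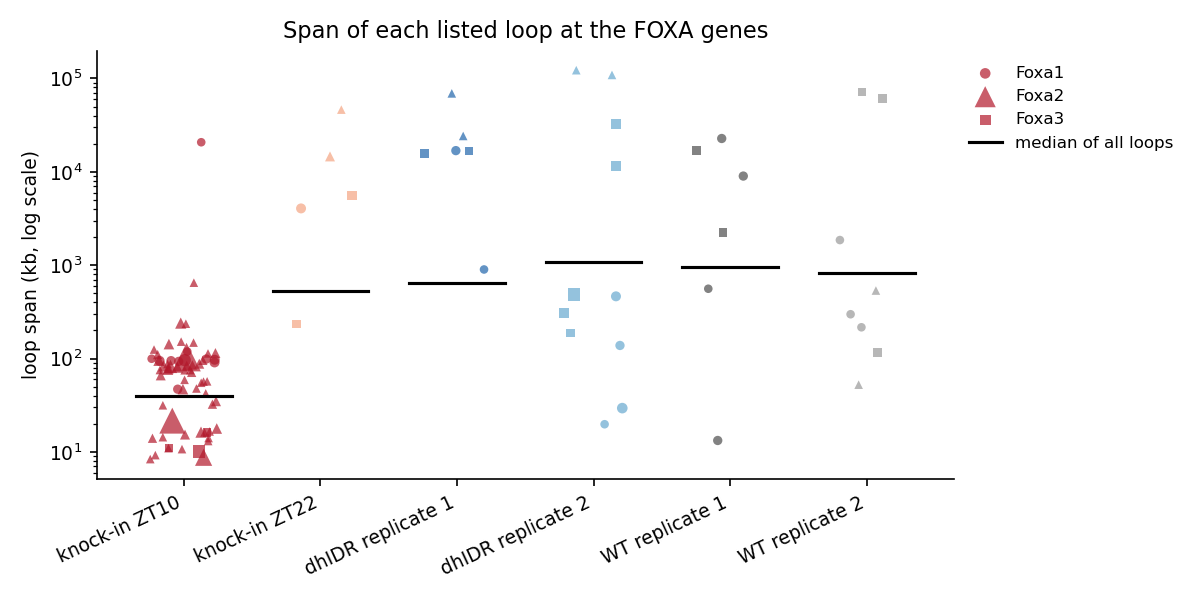
Span of each of the loops at the FOXA genes in kb on a log scale, by library, with symbols for the 3 genes sized by PETs and a black bar at the median of all loops of that library. The ZT10 points lie mostly between 10 and 250 kb, and those of the other libraries reach from 13.3 to 122537 kb.

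None of the 66 member loops at ZT10 had both anchors overlapping those of a loop in another library. That is 0 of 66, a share whose Wilson interval runs to 5.50% and for which a count of 0 allows up to 4.55%. Of all 57865 loops of the ZT10 library 1286 did, or 2.22% (2.11 to 2.35%), so a share of that size was not detectable with 66 loops. By 1 anchor alone, 11 of the 36 member loops of the other libraries overlapped a loop of the ZT10 library.

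The time of day comparison set ZT10, when REV-ERBα is abundant, against ZT22, when it is scarce. Foxa2 had 105 and 6.03 PETs per 100,000 listed PETs at ZT10 and ZT22, a ratio of 17.4 (8.75 to 40.7) and a log2 ratio of 4.12 (3.13 to 5.35). Foxa1 had 15.3 and 3.77, a ratio of 4.06 (1.63 to 13.1) and a log2 ratio of 2.02 (0.70 to 3.71). Foxa3 had 4.68 and 5.27, a log2 ratio of -0.17 (-1.55 to 1.36), and its 22 PETs over both libraries fell short of the 30 set for reading a ratio. With 1 library a time there is no test, and these values compare 2 libraries and not 2 times of day.

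Foxa1 and Foxa2 were both at least 4-fold higher at ZT10, as were 30.7% of the 6051 genes with at least 30 PETs, and neither was at least 4-fold lower, as were 15.2%. The log2 ratio of the median gene was 0.95, and relative to it Foxa2 lay at 3.17, Foxa1 at 1.07 and Foxa3 at -1.12. A larger log2 ratio than that of Foxa2 was seen at 200 genes, and than that of Foxa1 at 1831. So Foxa2 lay near the top of the genes read, while Foxa1 lay close to the limit that 30.7% of genes passed. The log2 ratio of Foxa1 was 0.44 with 50 kb on either side, where ZT10 had 49 PETs and ZT22 had 15, and that of Foxa2 was 3.05. Another 2 settings changed the loops counted and with them the library totals by which the members' PETs were divided. Without loops of 3 PETs the total at ZT10 was 6.66 times that at ZT22, against 2.41 times over all loops, and the log2 ratio was 0.26 for Foxa1, with 40 and 5 PETs, and 2.96 for Foxa2. For loops with both anchors at least 700 bp wide the totals stood 16.4 times apart, and the ratio was -0.41 for Foxa1 and 2.68 for Foxa2. Both were taken against a floor of 3 PETs, because ZT22 listed none at either gene. They are lower bounds for listed PETs only, since unlisted loops of up to 2 PETs each may sum to more than 3. Divided by the totals of all loops, an alternative chosen after seeing the data, the members' PETs of these 2 settings gave other values. They were 1.73 and, against the floor, 2.35 for Foxa1, and 4.42 and, against the floor, 5.45 for Foxa2. At ZT10 316 of the 337 PETs of Foxa2 and 37 of the 49 PETs of Foxa1 came from loops with both anchors at least 700 bp wide, and the other libraries listed none of these at the members. Over all loops of the ZT10 library, 268106 of 320427 PETs came from such loops.

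**Figure D4:**
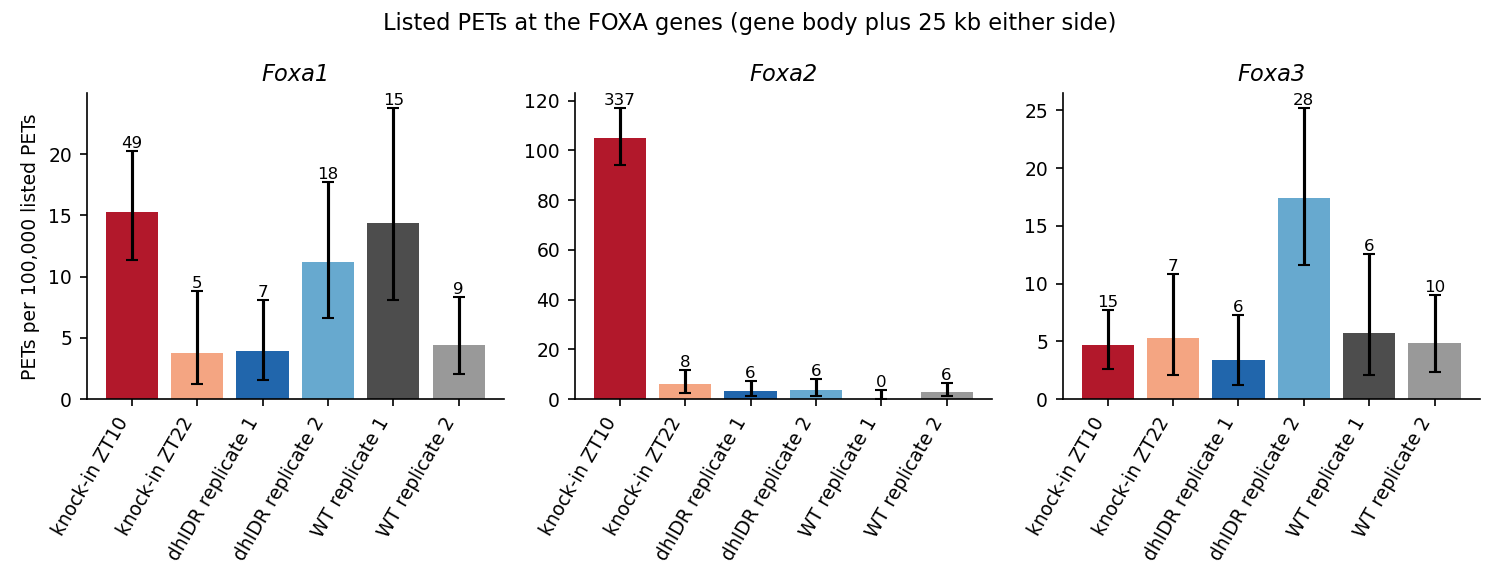
PETs at Foxa1, Foxa2 and Foxa3 per 100,000 listed PETs in each of the 6 libraries, with 95% exact Poisson intervals as error bars and the PETs themselves above the bars. The ZT10 bar of Foxa2 reaches 105 and its other bars lie at 6.03 or less, while the highest Foxa3 bar is that of dhIDR replicate 2.

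The AAV comparison asked whether removing the hIDR changed the loops held by REV-ERBα at ZT10. No member passed the test. In PETs per 100,000 listed PETs, Foxa1 had 3.92 and 11.2 in dhIDR against 14.4 and 4.41 in WT, and the groups overlapped. The log2 ratio of dhIDR over WT was -0.23 (SE 0.89, adjusted p = 1.00, edgeR quasi-likelihood test). Foxa3 had 3.36 and 17.4 in dhIDR against 5.76 and 4.90 in WT, also overlapping, with a log2 ratio of 0.97 (SE 0.94, adjusted p = 1.00, edgeR). Foxa2 had 3.36 and 3.74 in dhIDR against 0 and 2.94 in WT, with a log2 ratio of 1.06 (SE 1.94, adjusted p = 1.00, edgeR), which was 0.18 without WT replicate 1, the library at 0.

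Foxa2 was thus the only member whose libraries did not overlap as shares, higher in dhIDR, as at 17.6% of the 19433 genes tested, and 14.7% were lower without overlap. In PETs as listed, though, both dhIDR replicates and WT replicate 2 had 6. By edgeR 0 of the 3 members passed an adjusted p of 0.05 or an unadjusted p of 0.05, and by DESeq2 likewise 0. Over all genes edgeR called 0% higher and 0.0154% lower, which are the 3 neighbouring genes Eif4enif1, Sfi1 and Gm51877 on chromosome 11, and 494 genes had an unadjusted p under 0.05. The exact two-sided permutation test over the libraries gave p = 0.333 for Foxa2, the smallest that 2 against 2 libraries allow, 0.667 for Foxa1 and 1 for Foxa3. The directions of Foxa1 and Foxa3 rested on single libraries. Foxa2 kept its sign with each library left out, but its size also rested on 1 library. Its log2 ratio fell from 1.06 to 0.18 without WT replicate 1, which had 0 PETs. The log2 ratio of Foxa1 was 0.69 without WT replicate 1 and 0.35 without dhIDR replicate 1, and that of Foxa3 was -0.65 without dhIDR replicate 2. With SEs of 0.89 to 1.94 on the log2 scale, changes of several fold in either direction were not detectable. The WT replicates listed 0 of the 66 ZT10 member loops by both anchors, so this comparison could not show whether dhIDR loses them.

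Levels of different genes were compared per length, as PETs per 100 kb of window. At ZT10 the order was Foxa2 with 623, Foxa1 with 85.4 and Foxa3 with 24.9, and the intervals of the counts behind them did not overlap. Only 50 protein-coding genes had a higher level than Foxa2, against 2021 above Foxa1 and 5074 above Foxa3, and the median gene had 5.62. At ZT22 the levels were close, 14.8 for Foxa2, 8.71 for Foxa1 and 11.6 for Foxa3, with overlapping intervals and a median gene at 8.48. In the AAV libraries Foxa2 lay at 0 to 11.1, Foxa1 at 12.2 to 31.4 and Foxa3 at 9.96 to 46.5, and the medians of all genes lay at 5.73 to 12.0. The highest of these was Foxa3 in dhIDR replicate 2, where 56 genes had more. Foxa1 had 258 genes above it in WT replicate 1 and 622 in dhIDR replicate 2, fewer than at ZT10. It had 7888 above it in WT replicate 2 and 10073 in dhIDR replicate 1.

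The other 41 forkhead genes, relatives with the same DNA-binding fold and many different roles, had a median level of 5.70 at ZT10 and 7.44 at ZT22. None exceeded Foxa2 at ZT10, 7 exceeded Foxa1 and the same number exceeded Foxa3. The highest were Foxo1, a target of insulin signalling in hepatocytes, with 242 at ZT10 and 28.8 at ZT22, Foxn1 with 222 and 15.2, and Foxo3 with 183 at ZT10. Of the 41, 17 were at 0 at ZT10. Among the 9 with at least 30 PETs, 5 were at least 4-fold higher at ZT10 and 0 at least 4-fold lower, and their median log2 ratio was 2.02, against 0.95 over all genes read.

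Other transcription factor genes of the hepatocyte stood higher as a list. The 16 genes had a median level of 122 at ZT10 and 11.2 at ZT22, and 15 of them exceeded Foxa3, 11 exceeded Foxa1 and 1 exceeded Foxa2 at ZT10. That gene was Cebpa, a regulator of hepatocyte metabolism, with 720 at ZT10 and 24.7 at ZT22. Hnf4a, the nuclear receptor gene central to hepatocyte identity, had 336 and 6.89, and Onecut1, a homeobox factor of liver and bile duct development, had 333 and 0. Of 14 with at least 30 PETs, 9 were at least 4-fold higher at ZT10 and 0 lower, with a median log2 ratio of 2.74. Per length, Foxa2 thus stood among the highest of the liver factors at ZT10 and Foxa1 below most of them. The order depends on the measure. In PETs not divided by length, Hnf4a had 390 and Cebpa 379 at ZT10, above the 337 of Foxa2, and Onecut1 had 259.

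**Figure D5:**
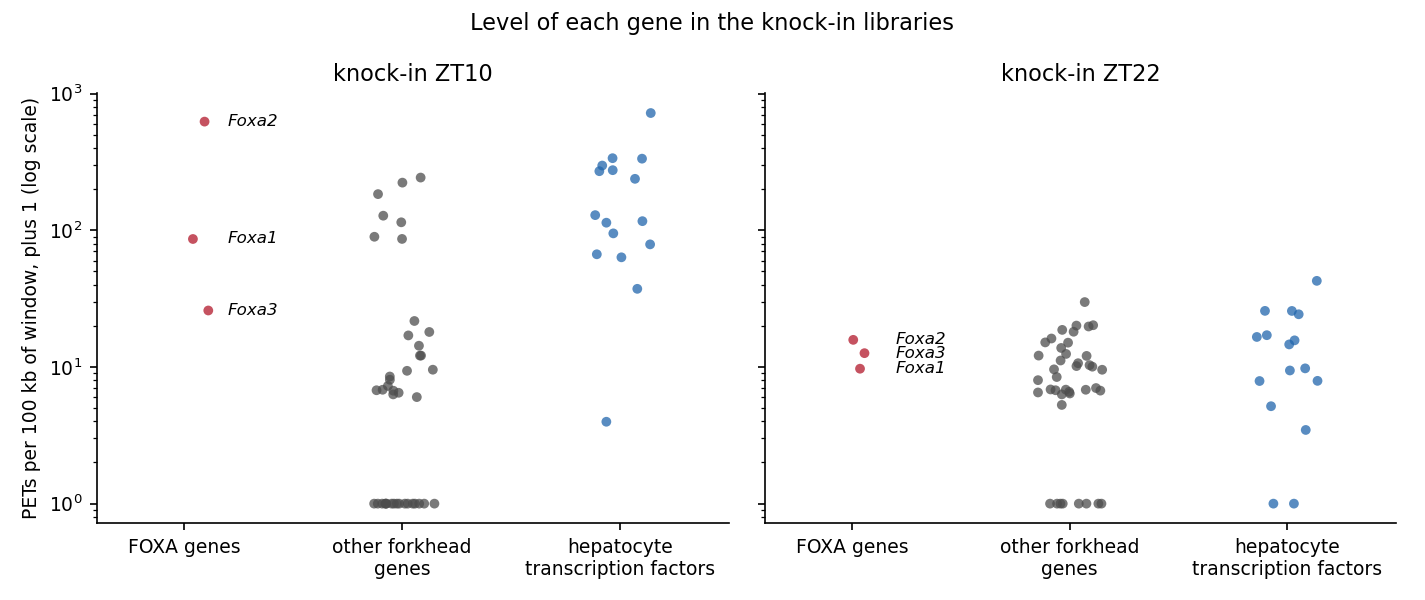
Level of each gene at ZT10 (left) and ZT22 (right), in PETs per 100 kb of window plus 1 on a log scale, for the FOXA genes, the other 41 forkhead genes and 16 further hepatocyte transcription factors. Each point is a gene. Foxa2 at 623 lies above all the other forkhead genes at ZT10, and the 3 FOXA points lie between 8.71 and 14.8 (before adding 1) at ZT22.

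The genes whose levels were most like those of each member were found over the 6 libraries, by the Euclidean distance between square roots of PETs per 100,000 listed PETs and per 100 kb. For Foxa1 they were Plin4 (distance 0.990, among 16164 genes), Zfp787 (1.11) and Rtn4 (1.26). For Foxa2 they were Ugt1a6a (1.09), Alg12 (1.28) and Ugt1a5 (2.09), and the first and last of these overlap on chromosome 1 and share PETs. Like Foxa2, Alg12 had 343 PETs at ZT10, 8 at ZT22, 4 and 6 in dhIDR, and 0 and 9 in WT. For Foxa3 they were Tra2a (0.913), Chmp2b (1.04) and Tmem131 (1.09). Each of these had its most PETs in dhIDR replicate 2, as Foxa3 had, with 39 in Tra2a, 29 in Chmp2b and 64 in Tmem131. Such likeness to a member follows from how the genes were chosen and is no separate result.

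Marker genes of liver cells were read in the same way, as loops and not as expression. The 10 hepatocyte markers summed to 890 PETs per 100,000 listed PETs at ZT10 and 85.9 at ZT22, with 1 (Serpina1a) and 0 of them at 0, and to 50.4 and 46.7 in dhIDR and 46.1 and 40.2 in WT. The 7 Kupffer cell markers summed to 1.87 at ZT10, with 5 at 0 (Clec4f, Marco, Vsig4, Adgre1 and Csf1r) and Timd4 and Cd5l at 3 PETs each, and to 36.9 at ZT22, 75.7 and 28.6 in dhIDR, and 43.2 and 68.6 in WT. Endothelial markers lay at 65.2 at ZT10 and 36.2 to 72.0 in the others, and stellate cell markers had 48 PETs in all at ZT10, a lower share than the 40.3 to 78.5 per 100,000 of the others. Cholangiocyte markers lay at 37.8 and 11.8 to 34.9, and lymphoid markers at 59.0 and 22.1 to 33.6. Of the cholangiocyte markers Krt19 and Epcam were at 0 at ZT10, of the lymphoid ones Cd8a and Ms4a1, of the endothelial ones Kdr and of the stellate ones Lrat. Single genes weighed on the ZT10 sums, with 119 of 189 lymphoid PETs at Cd4 and 1434 of 2852 hepatocyte PETs at Fga. Hepatocyte markers were thus high in the library in which Foxa2 was high, and their part in the FOXA values was not tested. Fewer cells of a type and fewer loops per cell cannot be told apart in the bulk knock-in samples. In the AAV libraries the tagged protein came from a promoter active in hepatocytes. Sums for markers of other cells there are not a measure of cell number, and their source was not tested.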

How the data were processed

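In-situ ChIA-PET with anti-HA beads was analysed in 6 of 8 samples. Each deposited file lists, for 1 library, anchor pairs on the same chromosome with the raw counts of PETs that the authors found between them, not normalized and not pooled. Per the submitters' processing notes, mm10 was the genome build. Aligner, duplicate filter and cluster caller are not given in the sources used here. Sample titles gave the groups and the replicate numbers. Mitochondrial clusters were left out.

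PETs were summed per protein-coding RefSeq gene (GRCm38.p6, which shares its coordinates with mm10) over the gene body plus 25 kb on either side; a loop counts once per gene, and neighbouring genes share loops. All 3 members matched the annotation and the promoter table. Depth was 104161 to 320427 listed PETs per library. The knock-in libraries were compared as ratios of shares of listed PETs with exact Clopper-Pearson intervals, read at 30 or more PETs over both libraries, and PETs have exact Poisson intervals. In the knock-in ratios a library at 0 was taken at a floor of 3 PETs, and in the AAV comparison a 0 was kept as 0. The AAV libraries were compared with edgeR 4.0.16 in R 4.3.3 (quasi-likelihood test, TMM, 10 or more PETs over 4 libraries, Benjamini-Hochberg over 19433 genes at 0.05), with DESeq2 1.42.0 as an alternative. The edgeR step was tested on simulated data. Tables and figures were made with Python 3.11.15, pandas 2.3.3, scipy 1.17.1 and matplotlib 3.10.9.

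Named were the 3 members in all libraries, their 5 strongest ZT10 loops with genes within 5 kb of the far anchors, the 3 genes most like each member, and the 3 of each comparison list with the highest ZT10 level. Loops of the other libraries, merged anchors and the 3 stretches were added after their values were seen. The members and lists were chosen with earlier results of these data known.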

Additional observations from a re-analysis of the deposited data

How the results depend on the processing

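Between the knock-in libraries the log2 ratio of ZT10 over ZT22 was 2.02 for Foxa1, 4.12 for Foxa2 and -0.17 for Foxa3. With 50 kb on either side of the gene it was 0.44 for Foxa1, 3.05 for Foxa2 and -0.42 for Foxa3. Without loops of 3 PETs it was 0.26 for Foxa1, 2.96 for Foxa2 and -1.57 for Foxa3, and for loops with both anchors at least 700 bp wide, which ZT22 did not list at any member, it was -0.41, 2.68 and -1.71 against a floor of 3 PETs. Library totals were recomputed in both settings. Divided by the totals of all loops (chosen after seeing the data), the same PETs gave 1.73, 4.42 and -0.10 without loops of 3 PETs. For wide anchors they gave 2.35, 5.45 and 1.05 against the floor, so the negative value of Foxa1 came with the recomputed totals. Under the other 5 settings it was 1.07 to 2.54 for Foxa1, 3.17 to 5.20 for Foxa2 and -1.12 to 0.64 for Foxa3, which was positive with 5 kb on either side (0.64) and for loops of at most 2 Mb (0.41). The values of Foxa1 and Foxa2 in those 2 settings were taken against the floor. Values against the floor are lower bounds for listed PETs only.

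Between dhIDR and WT the adjusted p of each member stayed above 0.05 in edgeR and DESeq2 under all settings that gave a value. The log2 ratio of Foxa1 was -0.23 as reported, 0.21 for loops of at most 2 Mb and 0.0034 without loops of 3 PETs. Leaving out 1 library at a time, it ran from -1.16 to 0.69 for Foxa1, from 0.18 to 5.44 for Foxa2 and from -0.65 to 1.71 for Foxa3, with the lone library left in a group assumed to vary like those of the other group, and 5.44 fitted against a WT library at 0. The values of Foxa1 without WT replicate 1 and without dhIDR replicate 1, and that of Foxa3 without dhIDR replicate 2, changed sign. The count of genes called was 3, and it was 0 without loops of 3 PETs, 0 without the chromosome 11 region that holds them, and 0 to 3 with a library left out, 0 being the value without WT replicate 1. With the replicate number as a block the log2 ratios were -0.23, 1.83 and 0.66 for Foxa1, Foxa2 and Foxa3 and 3 genes were called. The correlation of replicate differences between dhIDR and WT was 0.0165 over 19433 genes, which gave no sign of pairing by number. With so few PETs at most genes, this correlation cannot exclude pairing. The cause of the other changes was not tested. No value could be given for Foxa2 and Foxa3 under filterByExpr, for Foxa2 with 5 kb on either side, with loops of at most 2 Mb or without loops of 3 PETs, or for any member with wide anchors. The share of ZT10 member loops also listed elsewhere stayed at 0 with anchors extended by 1 kb, in bins of 10 kb, for loops of at least 4 PETs and with 5 kb on either side.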
